A study of Mus musculus with 6 samples.

Results

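Cdx1, Cdx2, Gata6, Hoxb13, Hoxd10 and Hoxd13 encode transcription factors that set position along the length of the gut. All probe sets that the platform annotation assigns to 1 of these 6 gene symbols were taken, which gave 8 probe sets of the 22626 on the array that are not Affymetrix controls: 2 each for Cdx2 and Gata6 and 1 for each of the other genes. The tissue was mouse colon epithelium, from control animals on standard feed and from animals whose feed held 0.4% UDCA (ursodeoxycholic acid, a bile acid that is more water-soluble than most). Each Affymetrix array took 1 pool of RNA from 2 animals, with 3 pools per group that are called 1+2, 3+4 and 5+6 here after their animal numbers. The sources used here do not give strain, sex, age or feeding time. The labels also carry a tag for IEC-6, a rat intestinal cell line, which conflicts with the mouse tissue they name, and the design text counts 6 samples per group where it names 3. The pools are therefore described as the mouse colon epithelium of the titles and tissue labels.

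CDX1 and CDX2 are homeodomain factors of the caudal family. CDX2 is required in mice for the intestinal, as opposed to gastric or oesophageal, character of the epithelium, and both factors bind AT-rich sites near many enterocyte genes. GATA6 is a zinc finger factor that acts with CDX2 and the HNF factors in intestinal epithelial genes. HOX genes lie in clusters whose order on the chromosome follows the order of their expression domains along the body axis, and the last groups, 10 to 13, mark its posterior end, the hindgut included.

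No member passed the test between diets, and the signals of Cdx2, Hoxd13 and Hoxd10 spanned up to 7.61-fold between pools. Signals are the deposited intensities, and fold changes are UDCA minus control on the log2(signal + 16) scale after quantile normalization, tested with limma over 11313 probe sets, the brighter 50% by mean log2 value, a filter at a signal of about 75.7. Of the member probe sets, 7 lay above that filter and the Hoxd10 probe set lay below it, so its values come from a fit without the filter. At an adjusted p under 0.05, 0 of the 7 passed, beside a background of 0.00884% (1 of 11313 probe sets, Apoc2). At an unadjusted p under 0.05 the member count was also 0, beside 13.7% of all probe sets. Log2 fold changes were positive for 3 of the 7 and negative for 4. The limma p-values set the difference between diets against the spread between pools of 2 animals, moderated over all probe sets in the fit. Spread between single animals was not measured. The smallest two-sided p of an exact permutation test with 3 pools against 3 is 0.1.

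**Figure D1:**
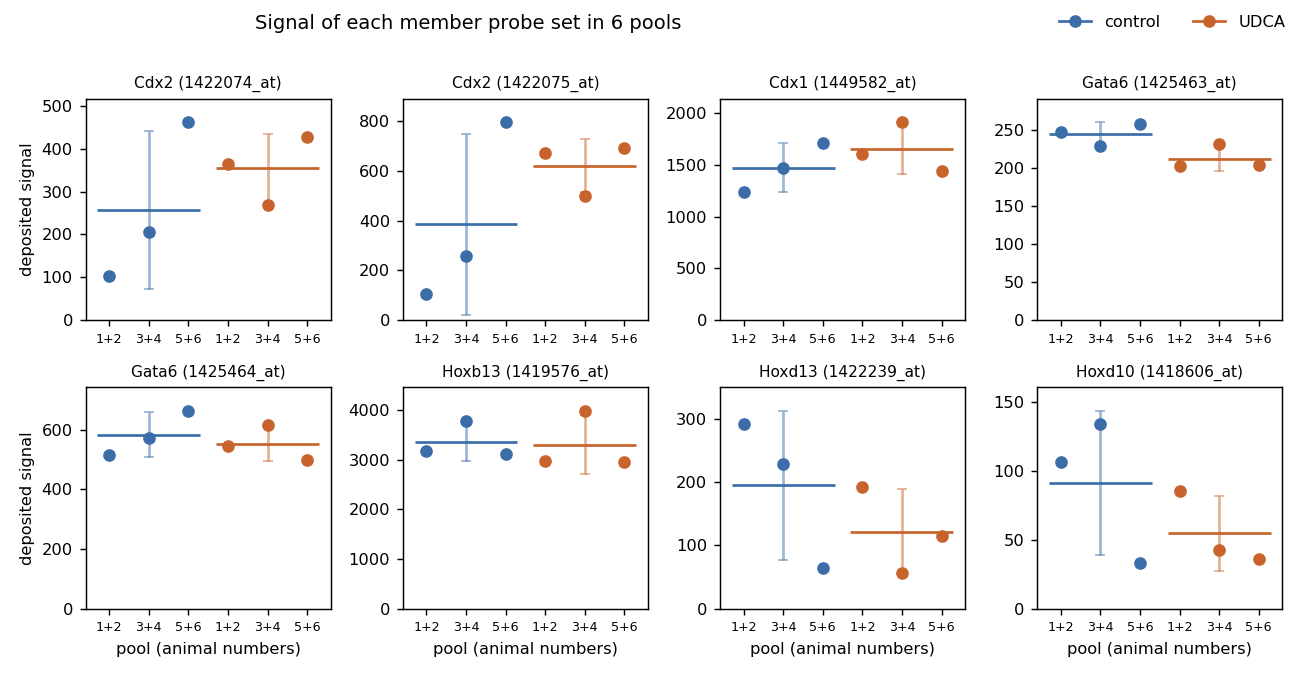
Deposited signal (y axis, linear, from 0) of the 8 member probe sets in each of the 3 control pools (blue) and 3 UDCA pools (orange), with the group mean as a horizontal line and the SD as a vertical bar (n = 3 pools). Control pools 1+2 and 3+4 had the lowest signals on both Cdx2 probe sets, while Hoxd13 and Hoxd10 were highest in those pools.

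Cdx2, Hoxd13 and Hoxd10 had an upstream sequence in the RefSeq promoter table (GRCm38.p6), which was searched from 250 bases before to 50 after the transcript start. The 250 bases before the start are shown for Cdx2, whose probe set 1422075_at had the widest range of the 8 among the pools, and for Hoxd13 and Hoxd10, whose signals were high and low in the same pools. Capitals mark matches on either strand to TATAAA (the core promoter element of that name), to CCAAT (an element that the factor NF-Y binds), to TTTATT (a string of the type that CDX factors bind), to TTTACG (of the type that group 13 HOX factors bind) or to GGGCGG (of the type that SP1 binds).
Cdx2: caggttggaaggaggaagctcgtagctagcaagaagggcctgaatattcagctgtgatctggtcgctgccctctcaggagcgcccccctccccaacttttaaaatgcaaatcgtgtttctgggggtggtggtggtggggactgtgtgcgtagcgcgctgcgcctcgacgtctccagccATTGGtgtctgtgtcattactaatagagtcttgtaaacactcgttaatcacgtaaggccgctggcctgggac
Hoxd13: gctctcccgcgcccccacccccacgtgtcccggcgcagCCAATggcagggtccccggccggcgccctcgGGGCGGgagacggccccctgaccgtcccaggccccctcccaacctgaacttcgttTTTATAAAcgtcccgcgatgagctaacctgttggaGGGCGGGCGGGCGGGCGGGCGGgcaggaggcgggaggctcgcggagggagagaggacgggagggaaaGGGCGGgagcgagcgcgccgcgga
Hoxd10: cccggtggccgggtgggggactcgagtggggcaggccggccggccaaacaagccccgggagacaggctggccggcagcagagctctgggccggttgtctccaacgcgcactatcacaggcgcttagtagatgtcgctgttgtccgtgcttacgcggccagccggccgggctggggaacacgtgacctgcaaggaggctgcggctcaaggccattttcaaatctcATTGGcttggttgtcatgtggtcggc
They lie at chr5:147307250-147307499 on the minus strand, chr2:74667975-74668224 on the plus strand and chr2:74691641-74691890 on the plus strand. The Cdx2 gene is annotated at chr5:147300900-147307249 and Hoxd13 at chr2:74668225-74671603. The Hoxd10 start used in the table lies inside the annotated gene, chr2:74684273-74695106.

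Each of the 3 windows held 1 CCAAT match, 72 bases before the start in Cdx2, 212 in Hoxd13 and 26 in Hoxd10, counted at the first base of the match. CCAAT occurs in 37.4% of the 32851 promoters of the table. Hoxd13 alone among them held TATAAA, as a pair of matches that overlap on opposite strands 126 and 124 bases before the start (13.6% of promoters), and GGGCGG, with 7 matches of which 5 overlap one another in a run (35.7% of promoters). TTTATT, found in 19.6% of promoters, and TTTACG, found in 3.03%, were in none of the 3 windows. The GC content of the 300 bases searched was 57.3% for Cdx2, 74.3% for Hoxd13 and 62.7% for Hoxd10, against a median of 52.7% over all promoters. These matches describe letters and are not binding sites.

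Cdx2 was measured by 2 probe sets, which differ in how far they spread between pools. On probe set 1422075_at the signal was 104.5, 256.4 and 795.6 in control pools 1+2, 3+4 and 5+6 and 671.8, 498.8 and 694.2 in UDCA pools 1+2, 3+4 and 5+6. Control pools 1+2 and 3+4 were below every UDCA pool, but control pool 5+6 had the highest deposited signal of all, so the groups overlapped. The mean was 385.5 ± 363 in control and 621.6 ± 107 in UDCA pools (SD, n = 3). The highest control pool was 7.61-fold above the lowest, against 1.39-fold among the UDCA pools. The log2 fold change was 1.01 (SE 0.53, 95% interval -0.20 to 2.21, adjusted p = 0.416 by limma), with an exact permutation p of 0.3.

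The other Cdx2 probe set, 1422074_at, gave 102.6, 205.4 and 461.1 in the control pools and 364.8, 269.0 and 428.3 in the UDCA pools. From the lowest signal upward, both probe sets put control 1+2 first, then control 3+4, UDCA 3+4 and UDCA 1+2, while the order of the 2 pools numbered 5+6 depended on the scaling. Means were 256 ± 185 and 354 ± 80.2 (SD, n = 3), with a 4.49-fold span among control and a 1.59-fold span among UDCA pools. The log2 fold change was 0.60 (SE 0.40, 95% interval -0.32 to 1.52, adjusted p = 0.513 by limma), with an exact permutation p of 0.4.

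The size of the Cdx2 difference depended on control pools 5+6 and 1+2, in opposite directions. Without control pool 5+6 the log2 fold changes of 1422075_at and 1422074_at were 1.66 and 1.05 (limma adjusted p = 0.0918 and 0.153), and without control pool 1+2 they were 0.42 and 0.19 (adjusted p = 0.805 and 0.902). For 1422074_at the value was 0.39 without UDCA pool 5+6. Control 1+2 was also the array with the lowest trimmed mean signal, 238, against 264 to 334 on the other arrays. UDCA 5+6, at 264, had Cdx2 signals of 694.2 on 1422075_at and 428.3 on 1422074_at. After quantile normalization, median centring and trimmed mean scaling, Cdx2 was lowest in control 1+2. The part of array level in the Cdx2 values was not tested. In these bulk pools, fewer cells of a type and less RNA per cell cannot be told apart.

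Cdx1, which is expressed with Cdx2 through the intestine and reaches high levels in crypts and colon, was nearly flat. Its signals were 1237.2, 1470.5 and 1712.0 in the control pools and 1602.8, 1911.9 and 1440.5 in the UDCA pools. The groups overlapped as deposited and after quantile normalization, and lay apart only after centring on the array medians, with UDCA higher. After that centring 22.7% of all probe sets above the filter had groups apart, in either direction. Mean signals were 1473 ± 237 and 1652 ± 239 (SD, n = 3). With a log2 fold change of 0.04 (SE 0.08, 95% interval -0.14 to 0.21, adjusted p = 0.848 by limma), Cdx1 had the narrowest interval of the 7 members above the filter. The value was 0.17 as deposited and 0.16 after median centring. Its SD over the 6 pools after quantile normalization was 0.04 log2 units, against 0.99 and 0.71 for the Cdx2 probe sets.

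Gata6 was measured by 2 probe sets, both with negative log2 fold changes. Probe set 1425463_at had signals of 246.7, 228.0 and 257.9 in the control pools and 202.4, 230.4 and 202.9 in the UDCA pools. As deposited, UDCA pool 3+4 lay above control pool 3+4. Means were 244 ± 15.1 and 212 ± 16.02 (SD, n = 3), and the log2 fold change was -0.24 (SE 0.12, 95% interval -0.52 to 0.03, adjusted p = 0.396 by limma). Probe set 1425464_at had signals of 514.1, 571.7 and 663.1 in the control pools and 544.2, 615.9 and 498.6 in the UDCA pools, which overlapped as deposited. Its means were 583 ± 75.1 and 553 ± 59.1 (SD, n = 3), with a log2 fold change of -0.17 (SE 0.09, 95% interval -0.38 to 0.04, adjusted p = 0.428 by limma).

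After quantile, median or trimmed mean scaling all 3 control pools lay above all 3 UDCA pools on both Gata6 probe sets, and the exact permutation p was 0.1 for each. The log2 fold change of 1425463_at was -0.15 without control pool 1+2, and that of 1425464_at was -0.07 as deposited and -0.08 after median centring. Among all probe sets above the filter, 19.2% had groups that did not overlap after quantile normalization and 7.70% had them as deposited. The 2 Gata6 probe sets were the members with such groups among the 7 above the filter. They share their target gene and the same 6 RNA pools, so they are not independent measurements of the diet.

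**Figure D2:**
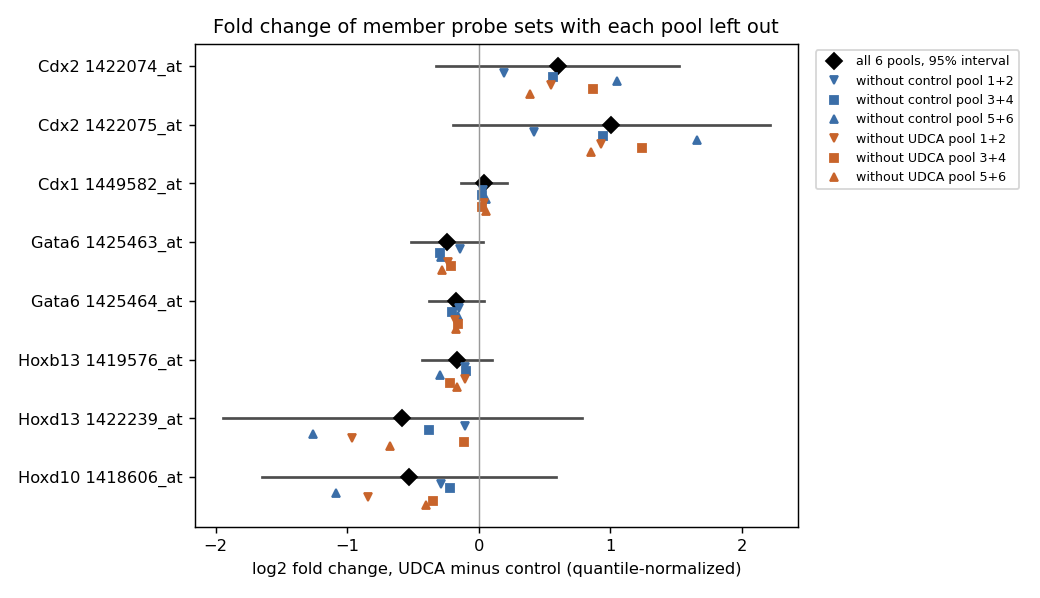
Log2 fold change (x axis, UDCA minus control, quantile-normalized) of the 8 member probe sets with its 95% interval (black diamonds and lines, 3 pools per group), and the value with each pool left out (blue for control, orange for UDCA pools). Each interval spans 0, and the Cdx2 and Hoxd13 values move farthest from 0 without control pool 5+6 and closest to 0 without control pool 1+2.

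Hoxb13, a group 13 factor of the distal colon and of the prostate in mice, lies at chr11:96194316-96196610. Control pools had 3172.3, 3779.1 and 3109.0 and UDCA pools 2969.1, 3986.2 and 2950.5. Pool 3+4 of either diet was the highest of its group, and the groups overlapped. Means were 3353 ± 370 and 3302 ± 593 (SD, n = 3). The log2 fold change was -0.16 (SE 0.12, 95% interval -0.43 to 0.10, adjusted p = 0.534 by limma), with an exact permutation p of 0.3. The value was -0.03 as deposited and -0.04 after median centring. It was -0.30 without control pool 5+6 and -0.10 when control 1+2, control 3+4 or UDCA 1+2 was left out.

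Hoxd13, the last gene of the HoxD cluster and a factor of limb, genital and hindgut development, had signals of 292.1, 228.2 and 64.2 in the control pools and 192.8, 56.6 and 114.1 in the UDCA pools. Control 1+2, control 3+4 and UDCA 1+2 were the 3 highest pools, and the groups overlapped. Means were 195 ± 118 and 121 ± 68.4 (SD, n = 3), and the highest pool was 5.16-fold above the lowest. The log2 fold change was -0.58 (SE 0.60, 95% interval -1.95 to 0.78, adjusted p = 0.669 by limma). It ran from -1.26 without control pool 5+6 (adjusted p = 0.201) to -0.11 without control pool 1+2, and leaving out UDCA 1+2 gave -0.96, leaving out control 3+4 gave -0.38 and leaving out UDCA 3+4 gave -0.11.

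Hoxd10, a group 10 factor of the same cluster, lay below the filter by its mean, with signals of 106.2, 134.4 and 33.1 in the control pools and 85.7, 42.7 and 35.8 in the UDCA pools. The same 3 pools as for Hoxd13 were the highest. Means were 91.2 ± 52.3 and 54.7 ± 27.0 (SD, n = 3), a 4.06-fold span over all pools. In the fit without a filter the log2 fold change was -0.53 (SE 0.48, 95% interval -1.65 to 0.59, adjusted p = 0.732 by limma), and it ran from -1.08 without control pool 5+6 (adjusted p = 0.253) to -0.22 without control pool 3+4. Leaving out UDCA 1+2 gave -0.84, leaving out control 1+2 gave -0.29 and leaving out UDCA 3+4 gave -0.35.

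The genes between Hoxd13 and Hoxd10 on the chromosome had the same split of pools. Hoxd12 had 30.2, 25 and 7.9 in the control pools and 30.0, 5.4 and 4.2 in the UDCA pools. Hoxd11 had 107.2, 109.6 and 30.9 in the control pools and 85.5, 39.7 and 34.4 in the UDCA pools. For Hoxd13, Hoxd12, Hoxd11 and Hoxd10, control 1+2, control 3+4 and UDCA 1+2 were the 3 highest pools as deposited and after quantile, median and trimmed mean scaling. This split crosses the diets, with 2 control pools and 1 UDCA pool on the high side. How many of all probe sets share it was not counted.

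Further along the cluster the split was not the same. Hoxd9 had 29.7, 42.1 and 2.7 in the control pools and 6.4, 3.8 and 25.5 in the UDCA pools, so UDCA 5+6 and not UDCA 1+2 was the third highest. Hoxd8 had 17.6, 18.4 and 6.9 in the control pools and 8.5, 9.0 and 6.2 in the UDCA pools, with only the 2 control pools standing clear of the rest. Hoxd1 was at most 7.0 on any pool. Only Hoxd13 of these genes lay above the filter, and the annotated spans of Hoxd11 (chr2:74679558-74687016) and Hoxd10 overlap.

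**Figure D3:**
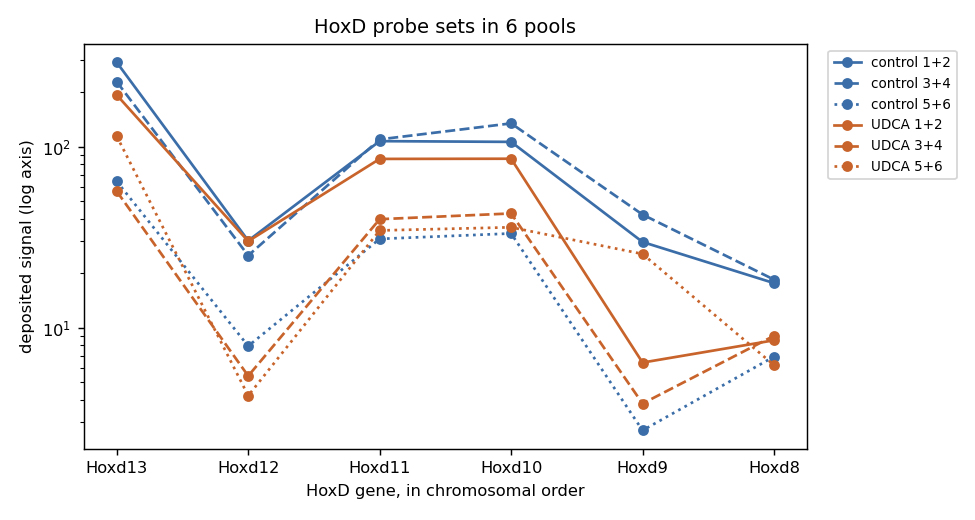
Deposited signal (y axis, log scale) of 6 HoxD probe sets (x axis, in chromosomal order) in the 3 control pools (blue) and 3 UDCA pools (orange), 1 line per pool. Lines join the probe sets of a pool and do not compare levels between probe sets. From Hoxd13 to Hoxd10, control 1+2, control 3+4 and UDCA 1+2 lie above the other 3 pools.

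Markers of other cells were set beside these pools. Summed signal of 5 squamous epithelium markers (Krt4, Krt5, Krt13, Krt14 and Trp63) was 52.6 to 87.0 in the control pools and 66.7 to 294.0 in the UDCA pools, and the highest value was that of UDCA 1+2, a pool on the high side of the HoxD split. Control 1+2 and 3+4, on the same side, had 87.0 and 52.6, and the 3 pools on the low side had 66.7 to 85.5. All 5 markers lay below the filter, and their part in the HoxD values was not tested. Summed signals were 79.3 to 160.3 in control and 112.7 to 126.8 in UDCA pools for 7 mesenchyme markers, and 100 to 114.2 and 87.7 to 108.4 for 6 smooth muscle markers. They were 44.2 to 68.2 and 54.3 to 73.8 for 4 endothelial markers, 32.1 to 60.6 and 43.2 to 83.3 for 5 neuron and glia markers, and 44.6 to 76.5 and 57.5 to 105.4 for 5 immune markers. None of these markers lay above the filter and none was at exactly 0 on any pool, and their part in the member values was not tested.

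The labelled tissue was bright for its own markers. All 6 epithelial markers lay above the filter, with sums of 30966 to 37626 in the control and 34114 to 41589 in the UDCA pools. Car1, the carbonic anhydrase of colonocytes, had signals of 6252.2, 6929.6 and 6904.9 in control and 6928.0, 7778.0 and 6646.4 in UDCA pools (log2 fold change -0.02, limma adjusted p = 0.904). Villin (Vil1), an actin bundler of the brush border, had a log2 fold change of 0.03 (adjusted p = 0.925). Of 4 colonocyte, 2 measured goblet and 3 enteroendocrine markers, 0 passed. At an unadjusted p under 0.05 there were 0, 1 (lower) and 3 (2 higher, 1 lower), beside 6.98% of all probe sets higher and 6.67% lower.

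Among other Hox, ParaHox and partner genes, 34 were named on the array and 6 lay above the filter. Of these 6, 0 passed the test. Their median log2 fold change was -0.23, with 1 positive and 5 negative, against a median of 0.01 over all probe sets tested. Hoxa3 (-0.43, limma adjusted p = 0.317) and Hoxa10 (-0.32, adjusted p = 0.359) had an unadjusted p under 0.05, 2 of 6 beside the 6.67% of all probe sets that were lower. Hoxa9 had -0.24 and Hoxa5 -0.22. The median of these genes stayed negative under the 3 other scalings, from -0.26 to -0.16. They were listed with earlier results of these data known, so the 2 of 6 are not independent of those results.

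Other transcription factors of the gut epithelium, listed together with the secreted signal Ihh, numbered 16 above the filter of 25 named on the array, and 0 passed. Their median log2 fold change was -0.19, with 13 of 16 negative, while 51.2% of all probe sets tested were positive. An unadjusted p under 0.05 was reached by 6 of 16, all lower in UDCA, beside 6.67% of all probe sets that were lower at that p. Ihh, which is not a transcription factor, was among the 6 (log2 fold change -0.25). Klf5, a Krüppel-like factor of proliferating crypt cells, had signals of 4008.1, 4198.1 and 4280.1 in control and 3429.0, 3962.1 and 3599.9 in UDCA pools, groups that did not overlap (log2 fold change -0.32, SE 0.08, limma adjusted p = 0.267). Elf3, an epithelial ETS factor, had -0.24, Hes1, a target of Notch signalling, had -0.37, and Nr1i2, the xenobiotic and bile acid receptor PXR, had -0.47 (adjusted p from 0.317 to 0.343). The median depended on the scaling, at -0.07 as deposited, -0.08 after median centring and -0.17 after trimmed mean scaling. Under these scalings 11, 11 and 13 of the 16 were negative. The list was chosen with earlier results of these data known, so its counts, the 6 of 16 included, are not independent of them.

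Genes with known CDX2 binding or dependence were centred near 0. Of 20 on the array 18 lay above the filter and 0 passed, with a median log2 fold change of -0.02, 8 positive and 10 negative. The sign of that median turned with the scaling (0.08 as deposited, 0.08 after median centring and -0.02 after trimmed mean scaling), while the median of all probe sets went to 0.08, 0.07 and -0.02. Fabp2, the intestinal fatty acid binding protein, had signals of 195.8, 383.5 and 1821.0 in the control pools and 1783.5, 1768.2 and 1116.8 in the UDCA pools. As on both Cdx2 probe sets, control 1+2 and 3+4 were its lowest pools and control 5+6 its highest as deposited. The Fabp2 log2 fold change was 1.42 (SE 0.59, limma adjusted p = 0.357). Apob, the apolipoprotein of chylomicrons, had 0.65 (adjusted p = 0.342), the claudin Cldn2 had -0.34 (adjusted p = 0.375) and the brush border protocadherin Cdhr5 had -0.26 (adjusted p = 0.385).

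Among 27 measured genes typical of the small intestine, 9 lay above the filter and 1, Apoc2, rose with UDCA. Apoc2, the lipoprotein lipase cofactor, had signals of 89.1, 97.6 and 94.1 in the control pools and 277.5, 422.6 and 268.3 in the UDCA pools (log2 fold change 1.56, SE 0.13, limma adjusted p = 0.0198). Every UDCA pool was above every control pool. The Apoc2 call was lost without the filter (limma adjusted p = 0.121) and when a pool numbered 1+2 or 3+4 was left out, of control (0.139 and 0.157) or of UDCA (0.09997 and 0.1024), with log2 fold changes of 1.44 to 1.63. The list had a median of 0.43, with 8 of 9 positive, and 5 of 9 with an unadjusted p under 0.05, all higher, beside 6.98% of all probe sets that were higher at that p. The list was chosen with earlier results of these data known, so these counts are not independent of them. Fabp6, the ileal bile acid binding protein, had 133.2, 231.5 and 245.6 in the control and 979.8, 506.5 and 250 in the UDCA pools (log2 fold change 1.22, SE 0.39, adjusted p = 0.314). Secretin (Sct) had 58.0, 64.9 and 70.9 in the control and 81.1, 107.7 and 84.9 in the UDCA pools, so it passed the filter only through the UDCA group. Without Sct the list held 8 genes, 7 positive, 4 of them with an unadjusted p under 0.05, and a median of 0.54. Apob and Fabp2 stand in both this list and the preceding one.

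Genes typical of the colon had values of both signs. Of 22 measured genes 19 lay above the filter and 0 passed, with a median of -0.08, 8 positive and 11 negative, and the median was 0.06 as deposited and 0.05 after median centring. Fxyd4, a regulator of the sodium pump, had signals of 3414.4, 3821.3 and 1352.8 in the control and 863.4, 913.8 and 847.0 in the UDCA pools (log2 fold change -1.67, SE 0.39, limma adjusted p = 0.264). Insl5, a hormone of colonic enteroendocrine cells, had 0.80 (SE 0.13, adjusted p = 0.264). Reg4 had 0.28 (adjusted p = 0.382). Retnlb, a goblet cell protein, had signals of 3.3, 66.3 and 261.3 in the control and 277.1, 335.1 and 971.6 in the UDCA pools. It passed the filter only through the UDCA group, and the other 18 colon genes had a median of -0.09, with 7 positive and 11 negative. The only measured stomach gene above the filter was Tff1, of 16 on the array, with a log2 fold change of 0.01 (-0.06 after trimmed mean scaling), and the summed signal of the 16 was 283.5 to 415.1 in the control and 324.1 to 421.6 in the UDCA pools.

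**Figure D4:**
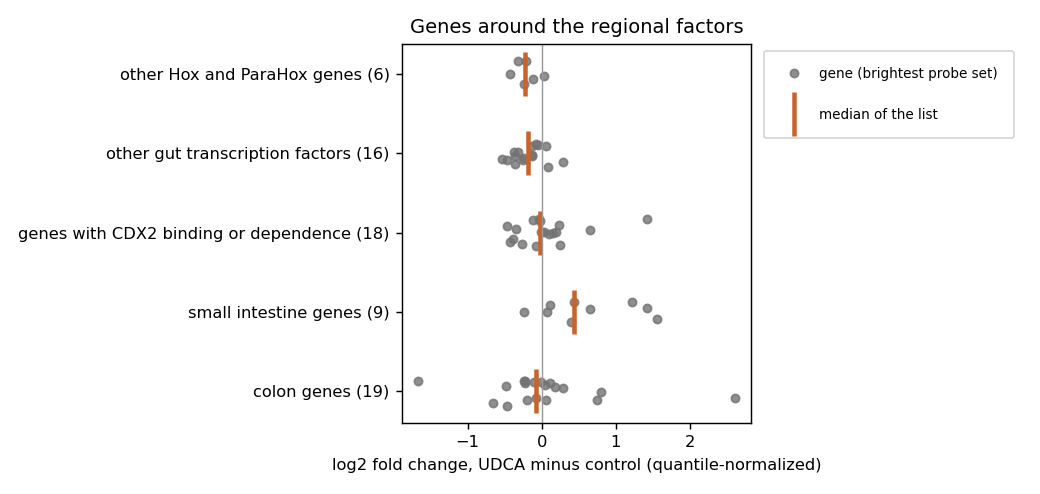
Log2 fold change (x axis, UDCA minus control, quantile-normalized) of genes above the filter in 5 lists, 1 point per gene (brightest probe set), with the list median as an orange bar and the number of genes in parentheses. The small intestine genes have a median of 0.43 and the other lists medians from -0.23 to -0.02. Apoc2, at 1.56, is the only gene that passed, and the lists were chosen with earlier results of these data known.

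The genes most like each member in pattern were ranked by Pearson's r over the 6 pools among 872 other genes with an SD of at least 0.3 log2 units. The values describe 6 arrays that share the same RNA pools, and no p is given. The genes were picked for their likeness over these pools, so high r values and a shared order of pools follow from that choice. For Cdx2 probe set 1422075_at they were the steroid dehydrogenase gene Hsd3b3 (r = 0.978), Tmem97 (0.976) and the actin capping gene Capg (0.975). For 1422074_at they were the goblet cell factor Spdef (0.987), the MHC class II gene H2-Ab1 (0.980) and again Tmem97 (0.974). Tmem97 had signals of 201.9, 365.9 and 549.0 in the control pools and 504.6, 438.2 and 461.4 in the UDCA pools.

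The SD over the pools was 0.04 log2 units for Cdx1 and 0.19 for Hoxb13. For Gata6 it was 0.18 on probe set 1425463_at and 0.10 on 1425464_at. All of these lay below the minimum SD required of the ranked genes, so their r values rest on small differences between pools. For Cdx1 the most similar genes were Chst4 (r = 0.989), the spermidine synthase gene Srm (0.952) and Ccdc86 (0.947). Gata6 probe set 1425463_at was most like the histone gene H2ax (0.965), the lipid phosphatase gene Plpp3 (0.963) and Usp53 (0.957), and probe set 1425464_at most like Irf1 (0.972), Bex4 (0.947) and Nek8 (0.921), so the 2 Gata6 probe sets had no named gene in common. Irf1, an interferon-regulated factor, had 797.2, 829.3 and 1157.3 in the control and 549.0, 622.6 and 575.4 in the UDCA pools. Hoxb13 was most like Ift27 (0.992), the peptide transporter gene Slc15a1 (0.974) and the folate transporter gene Slc46a1 (0.972). Slc15a1 had 504.5, 654.2 and 292.0 in the control and 289.9, 598.9 and 296.0 in the UDCA pools. For Hoxd13 the genes were Mical2 (0.935), Ddb2 (0.934) and Irf2 (0.892).

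Without control pool 5+6, 4 of the 7 member probe sets above the filter had an unadjusted p under 0.05, beside 18.5% of all probe sets. With any other single pool left out, as in the main fit of all 6 pools, the count was 0 of 7. The 4 without control pool 5+6 were both Cdx2 probe sets, with positive values, and Hoxb13 and Hoxd13, with negative values. The Cdx2 probe sets share their target gene and the same RNA pools, so they are not independent. As deposited, control 5+6 was the highest control pool on both Cdx2 probe sets and the lowest for Hoxb13 and Hoxd13. By adjusted p 0 of the 7 passed without that pool, beside 0.318% of all probe sets (36 of 11313). With all 6 pools, the unadjusted count was 2 of 7 without scaling, beside 840 of 11313 probe sets. It was 1 of 7 with trimmed mean scaling (1546 of all), with array weights (2177) and with the replicate block (1492), and 0 under the other settings.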

How the data were processed

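Intensity values are as deposited, 1 linear signal per probe set and pool. They were made with Affymetrix GCOS, per the submitters' processing notes; the sources used here do not give its version or scaling target. Per the labels' protocols, biotin-labelled cRNA was made from 3 µg of Trizol-extracted total RNA. The 64 Affymetrix control probe sets were left out. Of 22626 probe sets, 20380 had 1 gene symbol in the platform annotation, 691 had several, and the 1555 that it does not list stay unnamed. Trimmed means of the deposited arrays ran from 238 to 334 and medians from 67.4 to 87.3, so arrays were quantile-normalized on log2(intensity + 16). The pseudocount understates changes of dim genes. Two-sided tests of the diet used limma 3.58.1 in R 4.3.3 (lmFit, then eBayes with an intensity trend), and Benjamini-Hochberg adjusted p-values under 0.05 passed. The fit was tested on simulated data. The number of arrays limits the precision. The authors' deposited table of averages and folds was not used, since its average for the control group is the mean over all 6 arrays in each of 22690 rows (tolerance 0.006).

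Members and lists were chosen with earlier results of these data known. All member probe sets are named, as are the up to 4 genes per list with the smallest p, Car1 and Vil1, and the 3 genes most like each member by Pearson's r. List genes are represented by their brightest probe set; genes not named in the annotation were not analysed here. Cdx1, Gata6 and Hoxb13 sequences are not shown. Hoxd8, Hoxd9, Hoxd11, Hoxd12, Hoxd1, and the epithelial and squamous marker genes named beside the members were chosen for their place in the cluster or in a marker list. Alternatives covered scaling, pseudocount, filter, eBayes settings, array weights, a block for pool number, leaving out each pool and a threshold of 0.1.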

Additional observations from a re-analysis of the deposited data

How the results depend on the processing

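Under 18 alternative settings, 0 of 131 member values changed sign and 0 passed the threshold, and the count of member probe sets past it was 0 in each. The closest was Cdx2 probe set 1422075_at, with a limma adjusted p of 0.0746 without scaling. The count of all probe sets past the threshold, 1 with quantile normalization (1545 at an unadjusted p under 0.05), was 78 without scaling (51 higher and 27 lower, against 1 and 0). It was 0 without the filter (2314 unadjusted), 0 in the upper 25% by mean (787), a set that does not hold Apoc2, and 0 with the replicate block (1492). With each pool left out it ran from 0 to 36, the highest being that without control pool 5+6 (without UDCA pool 5+6 it was 4); the cause was not tested. Of the listed genes 1 passed, 6 without scaling, 0 without the filter, in the upper 25% and with the replicate block, and 0 to 3 with a pool left out. Same-numbered pools had correlations of deviations of -0.10, 0.16 and 0.05, and not every pool correlated best with its own number, so the numbers were not taken as pairs. Signals near the filter, as for Hoxd10, limit what can be read from the dim HoxD genes.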
